A study of Mus musculus with 72 samples.

Results

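The dystrophin complex is a chain of proteins in the membrane of muscle fibres that ties the actin cytoskeleton inside the fibre to laminin in the basement membrane outside it. Neuronal nitric oxide synthase, the product of Nos1, is held at the membrane by this complex, chiefly through dystrophin and the syntrophins, and makes nitric oxide, which widens the vessels that feed working muscle. In fibres that lack dystrophin, the other subunits and the synthase are largely lost from the membrane as proteins. The genes described here are Nos1 and 7 genes of the complex and its partners. These 7 are called anchors below for short, whether or not their proteins bind the synthase. Dmd encodes dystrophin, Utrn its relative utrophin, Dag1 dystroglycan, and Sgca, Sgcb and Sgcd the alpha, beta and delta sarcoglycans, and Cav3 encodes caveolin-3, the muscle protein of the membrane pits called caveolae. They were taken by name from the probe annotation, which gave 1 probe set for each of the 8 among 20239 named genes. The gene Nos1 was chosen because its level was lower in the knockout in these same arrays, so its difference between genotypes is described and not tested. The question asked of the other genes was whether they moved with it.

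RNA came from 2 leg muscles, the soleus (SOL), which is rich in slow fibres, and the largely fast tibialis anterior (TA), of 36 male mice of the C57BL/6 background at 5 months of age. In mKO mice a Cre recombinase driven by the Mlc1f promoter, a fast myosin light chain promoter active in skeletal muscle fibres, acts on floxed Bmal1, a gene of the circadian clock, and Ctrl mice were littermates without Cre. Other cells of the muscle keep Bmal1, and no Ctrl animal carried Cre, so the presence of Cre and the loss of Bmal1 cannot be told apart. Both muscles were taken from 3 animals of each genotype at each of 6 Zeitgeber times (ZT), from ZT0 (lights on) in steps of 4 h, with lights off at ZT12 and food always present. This gave 24 groups of 3 and 72 arrays, with 18 animals for each genotype.

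Values were log2 signals with array medians between 6.67 and 6.84. Arntl, the gene symbol of Bmal1, had a mean signal in mKO that differed from Ctrl by 0.09 in SOL and by -0.07 in TA (limma, adjusted p = 0.508 and 0.465), but its 24 h amplitude was 0.59 in mKO SOL against 1.34 in Ctrl SOL, and 0.33 in mKO TA against 1.09 in Ctrl TA. Both differences in rhythm passed the test (limma, 1.33e-05 for SOL and 1.70e-05 for TA after adjustment). The deposited table does not show whether the probes lie in the deleted part, so the mean checks no label. Myh7, the slow myosin heavy chain, was between 12.96 and 13.30 on every SOL array and between 6.55 and 8.10 on every TA array, so this gene separated the arrays as the muscle labels do. Liver transcripts stood highest on 1 array, Ctrl TA at ZT0 replicate A, where the mean of 6 liver genes was 11.5. It was at most 6.32 on the others of its group and 8.41 on any other array. The highest value was 7.83 among Ctrl SOL arrays, and 6.37 in SOL and 6.46 in TA among mKO arrays. Animals carried identification numbers of 3 series, BM3 (23 animals), BM2* (7) and BM2 (6), whose meaning the labels do not give. At ZT20 all mKO animals were BM2 and all Ctrl animals BM3, so series and genotype cannot be told apart at that time. The labels do not say whether litters or collection days were shared between groups.

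BMAL1 binds DNA with its partner CLOCK at E-boxes, whose best known form is CACGTG within the wider class CANNTG. Promoter windows from RefSeq (GRCm38.p6, 250 bases before to 50 after a gene's start) were found for all 8 genes, 10 windows in all because Dmd and Dag1 have 2 each. Both motifs read the same on either strand, and every CACGTG is also a CANNTG. The windows of Nos1 and of the pair that held CACGTG are shown, 5′ to 3′ on the gene's strand, with each CANNTG in capitals.
Nos1, chr5:117866589-117866888, plus strand: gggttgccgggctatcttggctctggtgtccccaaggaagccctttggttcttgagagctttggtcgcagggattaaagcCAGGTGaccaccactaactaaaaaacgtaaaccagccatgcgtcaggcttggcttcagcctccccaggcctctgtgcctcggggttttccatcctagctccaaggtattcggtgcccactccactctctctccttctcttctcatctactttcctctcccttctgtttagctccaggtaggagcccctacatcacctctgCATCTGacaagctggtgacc
Utrn, chr10:12861686-12861985, minus strand: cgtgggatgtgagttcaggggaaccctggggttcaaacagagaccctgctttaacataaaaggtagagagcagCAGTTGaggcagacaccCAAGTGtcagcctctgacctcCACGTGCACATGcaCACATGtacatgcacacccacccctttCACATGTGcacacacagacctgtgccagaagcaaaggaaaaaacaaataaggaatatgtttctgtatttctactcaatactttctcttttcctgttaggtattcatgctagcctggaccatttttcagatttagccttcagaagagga
Sgcd, chr11:47379276-47379575, minus strand: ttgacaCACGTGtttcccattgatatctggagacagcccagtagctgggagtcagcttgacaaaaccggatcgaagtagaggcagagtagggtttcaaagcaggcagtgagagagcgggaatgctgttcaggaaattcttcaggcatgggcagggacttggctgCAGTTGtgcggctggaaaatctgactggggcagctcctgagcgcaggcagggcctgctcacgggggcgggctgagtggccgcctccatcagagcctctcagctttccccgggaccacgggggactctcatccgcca
The Nos1 window held 2 CANNTG and no CACGTG. The Utrn window held 7 CANNTG, of which 1 was CACGTG, at position -139 from the start, and the Sgcd window held 2, of which 1 was CACGTG, at position -244. Among the 10 windows 8 held a CANNTG and 2 a CACGTG, while of all 32851 promoter windows from RefSeq 72.3% held the first and 7.15% the second. A match is only a run of letters, and binding was not measured. The windows lie at the starts that RefSeq gives, and a gene may have other starts, as Nos1 and Dmd are known to.

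In SOL, Nos1 was lower in mKO than in Ctrl at every time. Signals ran from 6.82 to 7.80 (median 7.36) on the 18 mKO arrays and from 7.75 to 8.60 (median 8.21) on the 18 Ctrl arrays. The only overlap came from arrays of different times.
At ZT0 the values were 7.17, 7.16 and 7.43 in mKO, against 8.46, 8.01 and 8.35 in Ctrl. At ZT8, the time of the smallest gap, they were 7.41, 7.42 and 7.39 in mKO and 8.09, 7.80 and 8.06 in Ctrl. At ZT20 they were 7.29, 7.48 and 7.66 in mKO and 8.60, 8.54 and 8.53 in Ctrl. At these and the other 3 times every mKO array lay below every Ctrl array of the same time. Of all 20239 genes, 0.326% were separated in this way at 6 of 6 times. Nos1 was chosen by this contrast, so the count is a description.
Nos1 averaged 7.33 ± 0.25 in mKO SOL and 8.20 ± 0.27 in Ctrl SOL (SD, n = 18 each). The mean over times of mKO minus Ctrl was -0.88 (SE 0.06, 95% interval from -0.999 to -0.75), which is 1.84-fold lower. By time it was -1.02 at ZT0, -0.74 at ZT4, -0.57 at ZT8, -0.77 at ZT12, -1.07 at ZT16 and -1.08 at ZT20, each with an SE of 0.15. In BM3 animals alone it was -0.90, from ZT0, ZT4, ZT8 and ZT16, the times at which both genotypes had BM3 animals. In BM2 and BM2* animals together it was -0.71, from ZT8 and ZT12 only.

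In TA the Nos1 difference was smaller and the groups overlapped. Signals ran from 9.45 to 10.25 (median 10.00) on mKO arrays and from 9.89 to 10.56 (median 10.23) on Ctrl arrays. At ZT12 the values were 9.73, 9.45 and 9.92 in mKO, against 10.47, 10.12 and 9.99 in Ctrl. This was the only time of the 6 at which no arrays overlapped. For comparison, 24.6% of genes had mKO below Ctrl without overlap at 1 or more times. At ZT20 the values were 10.01, 9.96 and 10.04 in mKO and 9.89, 10.27 and 10.04 in Ctrl, with full overlap.
The mean difference in TA was -0.25 (SE 0.06, 95% interval from -0.37 to -0.13), 1.19-fold lower, and the sign was negative at 6 of 6 times. Without the array highest in liver transcripts it was -0.26. It was -0.24 in BM3 animals alone and -0.44 in BM2 and BM2* animals, from the same times as in SOL. The latter comparison rests on few animals and on ZT8 and ZT12, where all animals gave -0.34 and -0.49. Series and time cannot be told apart in it.

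**Figure D1:**
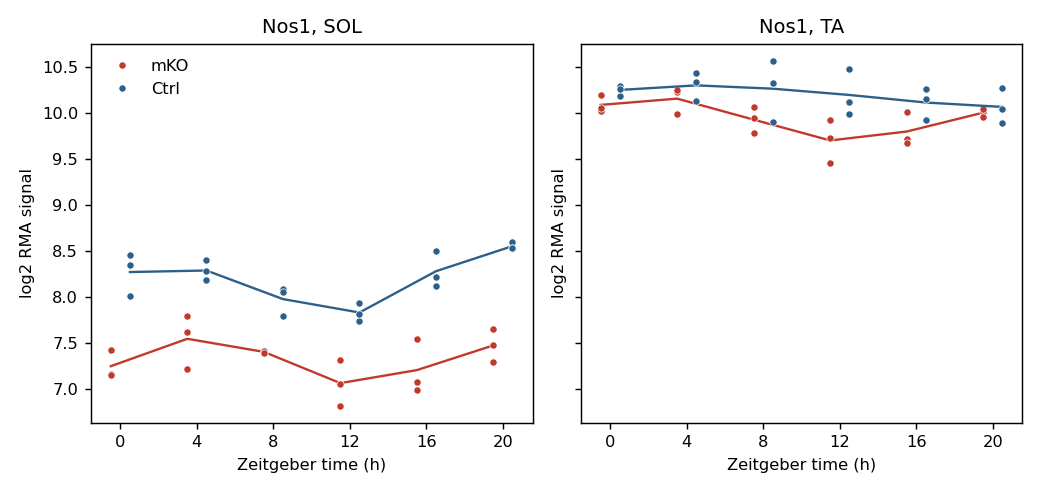
Nos1 log2 RMA signal against Zeitgeber time in h, in SOL (left panel) and TA (right panel), with 1 point per array (3 per genotype and time) and lines through the group means; mKO points are drawn slightly left of Ctrl points. In SOL every mKO array lies below the Ctrl arrays of its time, with mKO between 6.82 and 7.80 and Ctrl between 7.75 and 8.60, and in TA the groups overlap at all times but ZT12.

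Each array holds RNA of the whole muscle, so fewer cells of a type and less RNA per cell cannot be told apart. Neuronal nitric oxide synthase is known to be most abundant in fast fibres, and fast fibre genes were therefore set beside it. In SOL 1 of 8 fast fibre markers passed the test, Actn3, lower in mKO by 0.80 (SE 0.25, adjusted p = 0.0499, limma), a call lost without any 1 of 26 of the 36 animals (adjusted p up to 0.0916), with the trend and robust prior (0.0930), the series as a block (0.154) and ZT20 left out (0.252), and in either series alone, and Pvalb had a difference of -0.55 (adjusted p = 0.231). The mean of the 8 markers ran from 11.2 to 12.7 on mKO SOL arrays and from 11.5 to 12.7 on Ctrl SOL arrays. Over the 36 SOL arrays this mean had r = 0.21 with Nos1, with r = -0.21 within mKO and 0.48 within Ctrl. With the mean as a covariate, an alternative added after seeing the data, the Nos1 difference in SOL was -0.88. Nos1 was chosen by this contrast, so that value is a description, and what part fibre type has in it was not tested. In TA none of the 8 fast markers passed (0 also at an unadjusted p under 0.05, limma), and their mean ran from 13.5 to 13.7 in both genotypes.
Of 7 slow fibre markers, 3 were lower in mKO SOL, where their mean ran from 12.97 to 13.24 in mKO and from 13.06 to 13.32 in Ctrl, and 1 was higher in mKO TA. Among markers of other cells in SOL, Mbp of myelin was lower by 0.28, and Kdr of endothelium and Myh3, the embryonic myosin, were higher by 0.22 and 0.43. In BM3 animals alone Mbp was still called and Kdr (0.10, adjusted p = 0.546) and Myh3 (0.29, adjusted p = 0.290) were not, Myh3 was not called without ZT20 (adjusted p = 0.197), and the sign of Myh3 turned in BM2 and BM2* animals alone (-0.20). Endothelium had 1 of 6 markers called (list mean 9.38 to 9.68 in mKO, 9.23 to 9.79 in Ctrl), nerve 1 of 2 (6.17 to 6.51 in mKO, 6.32 to 6.66 in Ctrl) and regenerating fibres 1 of 4 (7.38 to 7.67 in mKO, 7.19 to 7.71 in Ctrl), and no marker of smooth muscle, fibroblasts, macrophages, adipocytes or satellite cells was called in SOL. In TA 1 of 6 smooth muscle, 1 of 5 fibroblast and 1 of 4 regenerating fibre markers were lower, 1 of 5 satellite cell markers was higher, and the rest were not called. For comparison, 3.56% of all genes were called higher and 3.54% lower in SOL, and 6.76% higher and 8.06% lower in TA. What part these cells have in the results was not tested.

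None of these 7 anchors was called lower beside Nos1. The syntrophin gene Sntb1, given below with the other subunits, was called lower in both muscles. In SOL 1 of the 7 passed the test, Dag1, and it was higher in mKO. In TA 2 of the 7 passed, Dag1 and Cav3, and both were higher in mKO, while none of the 7 was lower in either muscle (0 of 7 also at an unadjusted p under 0.05, limma). Over all genes, 3.56% were called higher and 3.54% lower in SOL, and 6.76% higher and 8.06% lower in TA (adjusted p under 0.05, limma). The median difference of the 7 was 0.03 in SOL and -0.02 in TA, beside 0.00 and 0.02 over all genes. In SOL the 95% interval of each of the 7 lay above that of Nos1. In TA, where the Nos1 difference was small, the interval of Sgcd overlapped that of Nos1. There the lower ends of the intervals of Utrn and Sgcb lay just above its upper end. Because Nos1 was chosen by its fall in this contrast, these placings are descriptions and test nothing.

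Dmd, the gene of the cytoplasmic protein that links actin to the membrane complex, ran from 10.20 to 10.51 (median 10.36) in mKO SOL and from 9.45 to 10.50 (median 10.33) in Ctrl SOL. Apart from 1 low Ctrl array at ZT0, at 9.45, the genotypes covered nearly the same range. The difference was 0.03 (95% interval from -0.06 to 0.13, adjusted p = 0.822, limma) in SOL. In TA the signals ran from 9.89 to 10.21 (median 10.04) in mKO and from 9.80 to 10.26 (median 9.97) in Ctrl, a difference of 0.07 (95% interval from -0.00 to 0.15, adjusted p = 0.190). Both intervals lie above the interval of the Nos1 difference in the same muscle, which is a description, since Nos1 was chosen by its fall.
Utrn, the gene of the dystrophin relative utrophin, differed by 0.03 in SOL (95% interval from -0.04 to 0.10, adjusted p = 0.781) and by -0.05 in TA (from -0.13 to 0.03, adjusted p = 0.398, limma). Its arrays spanned 8.58 to 9.04 in mKO SOL and 8.66 to 9.03 in Ctrl SOL, and 8.13 to 8.58 in mKO TA and 8.26 to 8.59 in Ctrl TA. The 2 genotypes thus overlapped almost completely in both muscles.

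Dag1 encodes both the laminin-binding alpha and the membrane-spanning beta dystroglycan, the pair that joins dystrophin to the basement membrane. Its SOL signals ran from 10.92 to 11.34 (median 11.19) in mKO and from 10.69 to 11.18 (median 10.99) in Ctrl. At ZT8 they were 11.25, 11.25 and 11.31 in mKO, against 11.14, 10.99 and 10.96 in Ctrl. The mKO mean was the higher at 6 of 6 times, with no overlap at 2 of them, which 6.36% of genes also showed at 2 or more times. Dag1 rose by 0.18 in mKO SOL (SE 0.05, 1.13-fold, adjusted p = 0.00980, limma).
In TA the signals ran from 10.81 to 11.06 (median 10.98) in mKO and from 10.65 to 10.99 (median 10.87) in Ctrl. The mKO mean was the higher at 5 of 6 times, and Dag1 rose by 0.11 (SE 0.03, 1.08-fold, adjusted p = 0.0142, limma). Arrays did not overlap at 1 time, as for 30.1% of genes at 1 or more times. Within series the difference in SOL was 0.14 in BM3 (adjusted p = 0.340) and 0.26 in BM2 and BM2* (adjusted p = 0.919). In TA it was 0.08 in BM3 (adjusted p = 0.325) and 0.25 in BM2 and BM2* (adjusted p = 0.514). The call in TA was also lost when arrays were centred on their medians (0.09, adjusted p = 0.0767) and without ZT20 (0.11, adjusted p = 0.0556).

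Cav3 encodes the caveolin of muscle, which binds dystroglycan and neuronal nitric oxide synthase. In TA it ran from 7.83 to 8.30 (median 8.06) in mKO and from 7.61 to 8.02 (median 7.92) in Ctrl. At ZT0 the values were 8.05, 8.04 and 8.29 in mKO, against 7.83, 7.94 and 7.61 in Ctrl, and at ZT20 they were 8.07, 8.02 and 8.30 in mKO, against 7.91, 7.80 and 7.95 in Ctrl. The genotypes were apart at those 2 times and overlapped at the other 4, with the mKO mean the higher at 6 of 6. Of all genes in TA, 9.01% had every mKO array above every Ctrl array at 2 or more times. Cav3 rose by 0.19 in mKO TA (SE 0.04, 1.14-fold, adjusted p = 0.00261, limma). In SOL, where signals ran from 7.82 to 8.22 in mKO and from 7.66 to 8.26 in Ctrl, the difference was 0.08 (95% interval from 0.00 to 0.16, adjusted p = 0.276). Within series the TA difference was 0.19 in BM3 (adjusted p = 0.0903) and 0.14 in BM2 and BM2* (adjusted p = 0.859).

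The sarcoglycans form a subcomplex that steadies dystroglycan in the membrane. Sgca had a difference of -0.03 in SOL (95% interval from -0.09 to 0.03, adjusted p = 0.739) and -0.02 in TA (from -0.07 to 0.04, adjusted p = 0.724, limma), and Sgcb one of -0.03 in SOL (from -0.11 to 0.05, adjusted p = 0.811) and -0.06 in TA (from -0.13 to 0.00, adjusted p = 0.222). With array weights Sgcb was called lower in TA (-0.09, adjusted p = 0.0404), the one alternative that called an anchor lower. Sgca had the smallest SD of the 8 in each muscle and genotype, with signals from 11.25 to 11.50 in mKO SOL, 11.25 to 11.56 in Ctrl SOL, 11.48 to 11.69 in mKO TA and 11.50 to 11.70 in Ctrl TA.
Sgcd varied more with time. In SOL the values at ZT0 were 10.14, 10.14 and 10.20 in mKO, against 9.79, 9.95 and 9.53 in Ctrl, and at ZT4 they were 10.24, 10.31 and 10.23 in mKO, against 10.63, 10.04 and 10.14 in Ctrl. The mKO arrays lay above Ctrl at ZT0 and ZT16 only. The mean difference was 0.16 (95% interval from 0.05 to 0.27, adjusted p = 0.0606, limma), just short of the threshold, and it passed without any 1 of 5 animals, with the lowest adjusted p (0.00785, difference 0.19) without the Ctrl animal at ZT4 replicate A. It also passed with array weights (0.17, adjusted p = 0.0113), among genes above the median level (adjusted p = 0.0285), with the trend and robust prior (adjusted p = 0.0424) and with the replicate block of time and letter (adjusted p = 0.0453). In TA the mean difference was -0.09 (95% interval from -0.19 to 0.02, adjusted p = 0.277), with signs that differed between times, from -0.38 at ZT12 to 0.17 at ZT16. Every mKO array of Sgcd in TA lay below every Ctrl array at ZT12 and at ZT20, and at no time above. For comparison, 24.6% of genes had mKO below Ctrl without overlap at 1 or more times in TA. In BM3 animals the difference was 0.18 in SOL and -0.02 in TA, and in BM2 and BM2* animals 0.02 and -0.14. For Dmd, Utrn, Sgca and Sgcb the differences within series lay between -0.10 and 0.11, and none passed.

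**Figure D2:**
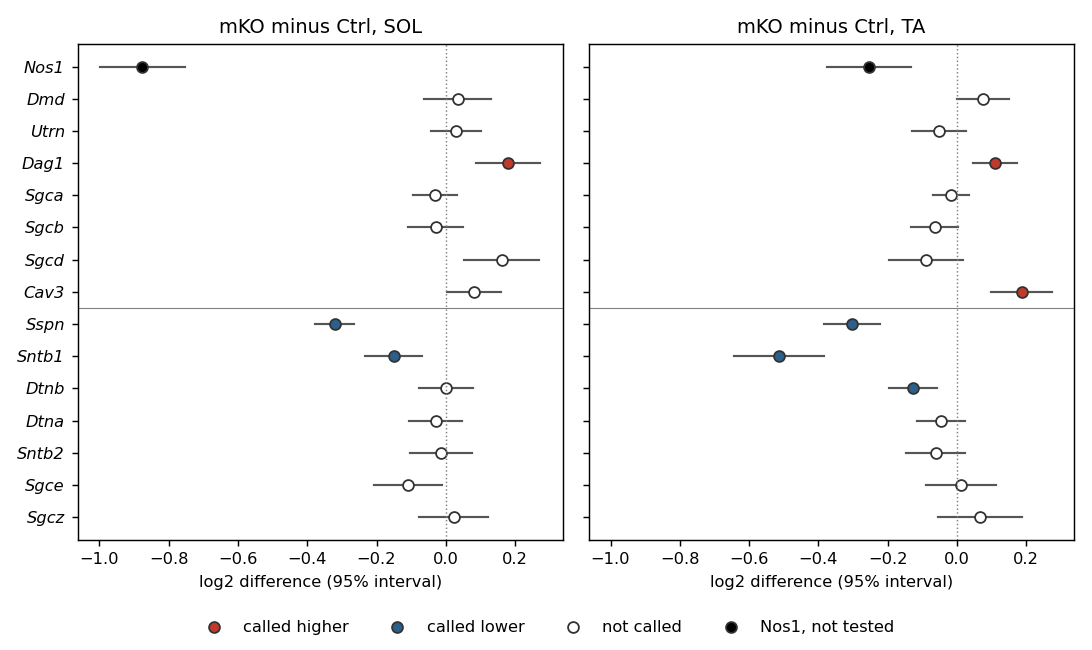
Difference mKO minus Ctrl (log2, mean over 6 times) with its 95% interval for Nos1 and its 7 anchors (above the line) and 7 other subunits of the complex (below it), in SOL (left) and TA (right). Filled red points were called higher and filled blue points lower at an adjusted p under 0.05, open points were not called, and the Nos1 point is a description; Nos1 at -0.88 in SOL lies far to the left of its anchors, which lie between -0.03 and 0.18.

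Of 9 further subunits listed, 7 were measured, and 2 were not analysed here. Here some genes did go down: 2 of 7 fell in SOL, 3 of 7 in TA, and 0 of 7 rose in either (0 of 7 differed upward at an unadjusted p under 0.05 by limma). Over all genes 3.54% were called lower in SOL and 8.06% in TA. Sspn, which encodes sarcospan, a small membrane protein bound to the sarcoglycans, ran from 9.01 to 9.30 (median 9.18) in mKO SOL and from 9.35 to 9.68 (median 9.49) in Ctrl SOL. Every mKO array in SOL was below every Ctrl array, whatever the time, so Sspn met at 6 of 6 times the separation given above for Nos1. Sspn fell by 0.32 (SE 0.03, 1.25-fold, adjusted p = 4.76e-10, limma). In TA it ran from 8.63 to 9.12 (median 8.84) in mKO and from 8.98 to 9.35 (median 9.14) in Ctrl, and fell by 0.30 (SE 0.04, adjusted p = 9.68e-07), with no overlap at 5 of 6 times. The share of all genes with mKO below Ctrl at 5 or more times in TA was 1.71%. Within BM3 animals Sspn was lower by 0.32 in SOL (adjusted p = 0.000163) and by 0.29 in TA (adjusted p = 0.00157), and in BM2 and BM2* animals the differences were -0.35 and -0.20 (adjusted p = 0.357 and 0.819).
Sntb1 encodes beta-1 syntrophin, one of the adaptors of the family that binds neuronal nitric oxide synthase. It ran from 7.28 to 7.70 (median 7.54) in mKO TA and from 7.59 to 8.73 (median 8.04) in Ctrl TA, where the Ctrl arrays were the more spread out. At ZT0 the values were 7.58, 7.65 and 7.40 in mKO, against 8.73, 8.29 and 8.24 in Ctrl. It fell by 0.51 in mKO TA (SE 0.06, 1.43-fold, adjusted p = 3.84e-07, limma), with no overlap at 5 of 6 times, and by 0.49 without the array highest in liver transcripts. In SOL it fell by 0.15 (SE 0.04, adjusted p = 0.0163), with overlap at 4 of 6 times. The SOL call was lost with the identification series as a block (-0.13, adjusted p = 0.0501) and in BM3 animals alone (-0.19, adjusted p = 0.0654), and the TA difference in BM3 animals was -0.46 (adjusted p = 0.00659) and in BM2 and BM2* animals -0.36 (adjusted p = 0.356).
Dtnb, the gene of beta-dystrobrevin, fell by 0.13 in TA (SE 0.03, adjusted p = 0.00938, limma) and had a difference of 0.00 in SOL (adjusted p = 0.996). In BM3 animals its TA difference was -0.10 (adjusted p = 0.307). Dtna (alpha-dystrobrevin), Sntb2 (beta-2 syntrophin), Sgce (epsilon-sarcoglycan) and Sgcz (zeta-sarcoglycan) were not called in either muscle, with differences between -0.11 and 0.07. The Sgce difference in SOL was -0.11 (95% interval from -0.21 to -0.01, adjusted p = 0.225, limma), with the mKO mean the lower at 6 of 6 times. Sgcz had mean signals between 5.09 and 5.16, below the lowest array median of 6.67, so a change in it may be hard to see.

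**Figure D3:**
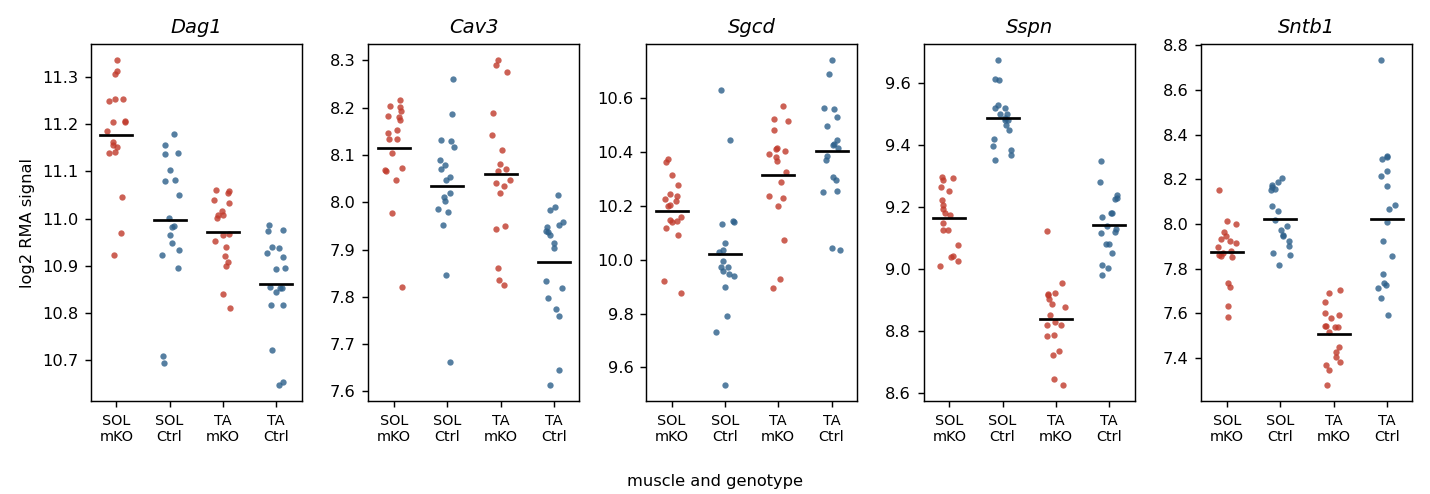
Log2 RMA signal of Dag1, Cav3, Sgcd, Sspn and Sntb1 on each array, by muscle and genotype, with 1 point per array (18 per column, times pooled) and a black bar at the mean; the vertical scales differ between genes. Sspn is the one in which mKO and Ctrl arrays of SOL do not overlap (9.01 to 9.30 against 9.35 to 9.68), and Sntb1 in Ctrl TA reaches up to 8.73.

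Other genes that work beside the complex were read in lists drawn up for this tissue. The counts of each list stand beside shares over all genes of 3.56% higher and 3.54% lower in SOL. In TA these shares were 6.76% and 8.06%, so 1 call in a list of about 10 genes is near them. Among 10 genes of caveolae and membrane repair 2 rose in SOL and 3 in TA, and 0 fell in either (0 lower also at an unadjusted p under 0.05 in TA and in SOL, limma). Cavin4, the muscle member of the coat of caveolae, rose by 0.34 in SOL and 0.50 in TA (adjusted p = 9.48e-07 and 3.15e-10). Its TA signals ran from 10.23 to 10.58 in mKO and from 9.61 to 10.26 in Ctrl. Trim72, also called MG53, which seals tears in the fibre membrane, rose by 0.26 in SOL and 0.21 in TA, and Pacsin3 rose by 0.18 in TA. The median difference of the list was 0.08 in SOL and 0.01 in TA.
Among 11 cytoskeletal and integrin linkers, 3 rose and 2 fell in SOL, and 2 rose and 1 fell in TA. Tln2, the gene of talin-2, which links integrins to actin, rose by 0.38 in SOL and 0.67 in TA (adjusted p = 4.39e-10 and 1.28e-13). Its TA signals, 9.32 to 9.95 in mKO and 8.75 to 9.09 in Ctrl, did not overlap. The share of all genes separated in this way over all TA arrays was not counted. Ank2, an ankyrin that helps to hold dystrophin and dystroglycan at the membrane, rose by 0.31 in SOL and 0.54 in TA, and Itga7, the laminin-binding integrin of muscle, by 0.21 in SOL. Synm, the gene of synemin, an intermediate filament protein, fell by 0.23 in SOL and 0.22 in TA, and Itgb1 fell by 0.11 in SOL. The Itgb1 call was lost without any 1 of 15 of the 36 animals (adjusted p up to 0.0625), with the series as a block (adjusted p = 0.0831), without ZT20 (0.0827) and with the fast marker mean as a covariate (0.0658), and the difference was -0.15 in BM3 animals alone (adjusted p = 0.0897) and -0.01 in BM2 and BM2* animals. Without ZT20 Itga7 was no longer called in SOL either (0.20, adjusted p = 0.0697). The list medians were 0.02 in both muscles.
Of 11 laminin and basement membrane genes none passed in SOL (2 of 11 at an unadjusted p under 0.05, limma) and 3 rose in TA: Lamb2 by 0.20, Hspg2, the gene of perlecan, by 0.19 and Lamc1 by 0.15. Of 13 genes that put the laminin-binding sugar on dystroglycan, 9 were measured. None passed in SOL (2 of 9 at an unadjusted p under 0.05) and 3 fell in TA: B3galnt2 by 0.16, Pomgnt2 by 0.15 and Pomgnt1 by 0.13. The median of the 9 in TA was -0.10, beside 0.02 over all genes. In BM2 and BM2* animals alone the sign of B3galnt2 in TA turned to 0.02. The call of Lamc1 was lost with centred arrays (adjusted p = 0.0689) and that of B3galnt2 without ZT20 (adjusted p = 0.108).

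Among 21 genes of nitric oxide signalling 19 were measured. In SOL 1 rose and 3 fell, and in TA 1 rose and 4 fell, with list medians of 0.00 and 0.01. The shares of all genes higher and lower were 3.56% and 3.54% in SOL, and 6.76% and 8.06% in TA. The sister enzymes were not called. Nos3, the endothelial synthase, had a difference of 0.07 in SOL (95% interval from -0.00 to 0.15) and 0.00 in TA (limma, adjusted p = 0.310 and 0.975). Nos2, the inducible synthase, had one of 0.16 in SOL (95% interval from 0.06 to 0.27) and 0.13 in TA (from 0.03 to 0.23). Both Nos2 values were just short of the threshold (limma, adjusted p = 0.0521 and 0.0674). The Nos2 mean was higher in mKO at 6 of 6 times in SOL and 5 of 6 in TA. Nos3 and Nos2 were picked out as the relatives of Nos1 after their values were seen. Prkg1, the kinase that cyclic GMP switches on downstream of nitric oxide, fell by 0.34 in SOL and 0.32 in TA (adjusted p = 3.28e-07 and 0.000198). Its SOL signals ran from 9.16 to 9.65 (median 9.31) in mKO and from 9.28 to 9.95 (median 9.69) in Ctrl. Calm2, 1 of the genes of calmodulin, which the synthase needs, fell by 0.18 in SOL and 0.32 in TA, but its SOL sign turned to 0.01 in BM2 and BM2* animals alone. Pfkm, the muscle phosphofructokinase that binds the synthase, fell by 0.20 and 0.21. Ddah1, which breaks down a natural inhibitor of the synthases, rose by 0.23 in SOL and 0.19 in TA. The TA value was no longer called with centred arrays (0.18, adjusted p = 0.0667), with the replicate block of time and letter (0.19, adjusted p = 0.0647), with the series as a block (0.19, adjusted p = 0.0581), or without any 1 of 6 of the 36 animals (adjusted p up to 0.0554). With the series as a block Calm2 was not called in SOL (-0.17, adjusted p = 0.0541).
Within single identification series fewer of the calls in these lists stood. In BM3 animals alone the SOL calls of Ank2, Tln2 and Prkg1 stood, and those of Cavin4, Trim72, Itga7, Synm, Itgb1, Ddah1, Pfkm and Calm2 did not. In TA those of Lamb2, Cavin4, Pacsin3, Ank2, Tln2, Synm, Calm2, Pfkm and Ddah1 stood, and those of Hspg2, Lamc1, the 3 sugar-adding genes, Trim72 and Prkg1 did not. In BM2 and BM2* animals alone, which are few, Cavin4 in TA was the 1 call of these that stood.

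The 2 muscles of an animal were then compared. Nos1 was far higher in TA than in SOL. In mKO the difference TA minus SOL within animals was 2.62, or 6.15-fold, and in Ctrl it was 1.997, or 3.99-fold, positive in 18 of 18 animals of either genotype. The gap in mKO exceeded that in Ctrl by 0.62. These gaps are given as descriptions with no test, because they hold the levels that Nos1 was chosen by.
In Ctrl all 7 anchors differed between muscles, in both directions and by much less. Sgcd was higher in TA by 0.38, Sgcb by 0.26 and Sgca by 0.14, so the 3 sarcoglycans shared a direction. Utrn was lower in TA by 0.36, Dmd by 0.35, Cav3 by 0.16 and Dag1 by 0.14 (adjusted p from 9.12e-10 to 0.00178). In mKO the same directions were called for Sgcd (0.13), Sgcb (0.23), Sgca (0.16), Utrn (-0.45), Dmd (-0.31) and Dag1 (-0.21), while Cav3 had -0.06 (95% interval from -0.13 to 0.02, adjusted p = 0.236). TA was the higher in 18 of 18 mKO and 18 of 18 Ctrl animals for Sgca, and in 0 of 18 and 0 of 18 for Utrn. These calls stand among many: over all genes 27.8% were higher and 20.4% lower in TA in mKO, and 22.9% were higher and 20.0% lower in Ctrl. Without ZT20, Sgcd in mKO was no longer called (0.10, adjusted p = 0.117).
Of the other subunits, Sntb1 was lower in TA by 0.37 in mKO (adjusted p = 2.26e-06) and had a difference of -0.00 in Ctrl (adjusted p = 0.983). Sspn was lower in TA by 0.32 in mKO and by 0.34 in Ctrl.

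**Figure D4:**
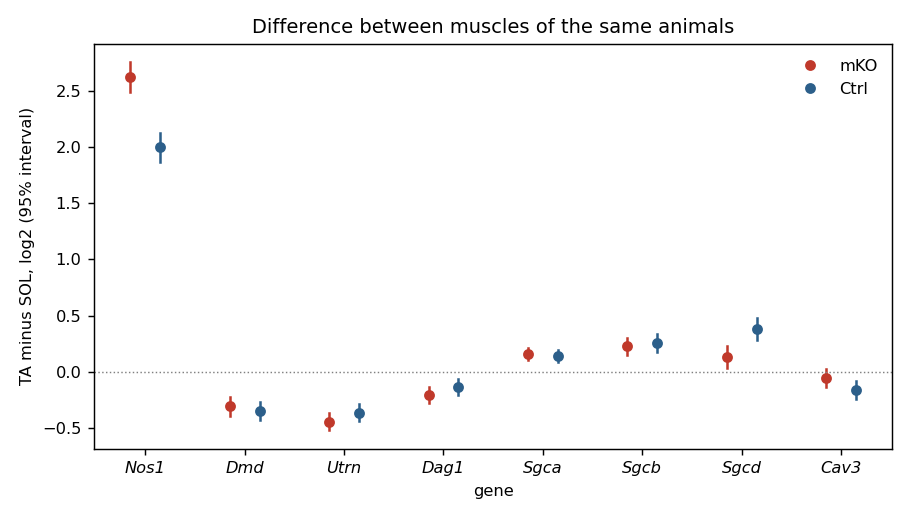
Difference TA minus SOL within animals (log2) with its 95% interval for Nos1 and its 7 anchors, in mKO (red, left of each pair) and Ctrl (blue, right), 18 animals each. Nos1 stands at 2.62 in mKO and 1.997 in Ctrl, and the anchors lie between -0.45 and 0.38.

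Whether the effect of mKO differed between muscles was tested on the same differences. Of the 7 anchors 1 passed, Sgcd, for which the effect in TA minus that in SOL was -0.25 (SE 0.07, adjusted p = 0.0356, limma), where 2.71% of all genes passed. Neither muscle alone had called Sgcd. The call was lost under several alternatives: adjusted p was 0.0526 with centred arrays, 0.113 with the series as a block, 0.125 without ZT20, 0.703 in BM3 animals alone (-0.20), and the gene was not called in BM2 and BM2* animals (-0.16). It was up to 0.0731 when 1 animal was left out, which ended it for 18 of 36 animals. The other 6 anchors had differences between -0.08 and 0.11 and were not called. For Cav3 the difference was 0.11 (95% interval from -0.00 to 0.22, adjusted p = 0.451), and for Dag1 -0.07 (from -0.17 to 0.03, adjusted p = 0.650). Among the other named genes Sntb1 fell further in TA than in SOL (-0.36, adjusted p = 0.00590), and Tln2 (0.29, adjusted p = 0.000342) and Ank2 (0.23, adjusted p = 0.00131) rose further in TA. Of the markers named above, Mbp (0.29, adjusted p = 0.00174) and Myh3 (-0.54, adjusted p = 0.00813) also differed.

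Time of day was examined in each muscle and genotype with a 24 h cosine, and amplitudes are given from its mean to its peak. Nos1 passed in Ctrl SOL, with an amplitude of 0.29, a peak at ZT21.7 and an adjusted p of 0.0139 (limma), where 6.05% of genes passed. The 3 Ctrl values were 7.94, 7.75 and 7.82 at ZT12, the lowest group mean, and 8.60, 8.54 and 8.53 at ZT20, the highest. No BM3 animal was taken at ZT12, and with the series as a block the amplitude was 0.28 (adjusted p = 0.0459).
In mKO SOL the Nos1 amplitude was 0.15 (adjusted p = 0.346), where 5.68% of genes passed. The difference in rhythm between genotypes did not pass (adjusted p = 0.942, with 0.0395% of genes called), so the 2 patterns are not shown to differ. In TA the amplitude was 0.22 in mKO (peak at ZT1.5, adjusted p = 0.0704) and 0.11 in Ctrl (adjusted p = 0.623), where 1.76% and 2.70% of genes passed, and the difference was not called (adjusted p = 0.999, with 0.104% called). The rhythm in mKO TA passed when tested among genes above the median level (adjusted p = 0.0307), with the trend and robust prior (adjusted p = 0.0486) and without either of 2 animals, Ctrl ZT8 replicate A and mKO ZT16 replicate C (adjusted p = 0.0380 and 0.0465).
None of the 7 anchors passed a rhythm test in either muscle or genotype, and none had a difference in rhythm called (0 of 7 in either muscle also at an unadjusted p under 0.05, limma). The closest were Dmd and Sgcd in Ctrl SOL, with amplitudes of 0.17 and 0.19 (adjusted p = 0.0916 and 0.0991). At an unadjusted p under 0.05 stood these and Sgcb in mKO SOL. Dmd passed in Ctrl SOL among genes above the median level (adjusted p = 0.0476). With 1 animal left out its amplitude there ran from 0.08 to 0.19 (limma, adjusted p up to 0.153), and it was never called. The amplitudes of the anchors ran from 0.00 to 0.19 in SOL and from 0.01 to 0.11 in TA. Sspn had a rhythm in mKO SOL (amplitude 0.12, peak at ZT12.8, adjusted p = 0.0121).

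From array to array, correlations of the anchors with Nos1 were weak and of both signs. Over the 36 SOL arrays their Pearson r with Nos1 ran from -0.47 for Dag1 to 0.19 for Sgca, and over the 36 TA arrays from -0.28 for Dag1 to 0.33 for Sgcd. Around the group means the r of the 7 lay between -0.08 and 0.37 in SOL and between -0.21 and 0.26 in TA. The 5 genes most like Nos1, by the mean of r over the SOL and r over the TA arrays, were Slc4a4 (0.80), Pdzrn3 (0.74), Tbc1d1 (0.72), Ptpn3 (0.71) and Smyd2 (0.71). These correlations are descriptions, since all arrays of a muscle share the split by genotype. Slc4a4, the gene of a sodium bicarbonate cotransporter, had differences of -0.91 in both SOL and TA, so in TA it lay further below Ctrl than Nos1 did. Tbc1d1, a regulator of glucose transporter traffic, had -0.88 in SOL and -0.71 in TA, and Ptpn3, Smyd2 and Pdzrn3 had values between -0.83 and -0.21 over both muscles.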

How the data were processed

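Both muscles of 36 mice were measured on 72 arrays. The deposited values are log2 signals. RMA is named without a version in the submitters' processing notes as the normalisation. The values were used as deposited, with no filter or scaling. Of 21225 probe sets, 20239 had 1 gene symbol in the platform annotation and were tested, and 986 stayed unnamed. The closest arrays had r = 0.996, so none was a copy. Precision is limited by how many arrays there are. The labels place 5 months under gender and male under age, and these were read as age and sex from the growth protocol.

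Genotype effects were fitted by lmFit and eBayes of limma 3.58.1 (R 4.3.3) on the 36 arrays of a muscle, with a term for each genotype and time, as the mean over 6 times of mKO minus Ctrl. The difference TA minus SOL and its interaction with genotype were fitted on differences within animals, which the labels pair. Deviations of such pairs had a median r of 0.05, over 0.1 in 11 of 36 pairs. Rhythm was a cosine and sine of 24 h, tested jointly by the moderated F test. Benjamini-Hochberg adjustment ran over 20239 genes with a threshold of 0.05, and intervals are at 95%. The fits were tested on simulated data with 200 changed genes.

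The genes and lists were chosen with earlier results of these data known. Named genes are the 8 of the complex, the other subunits, up to 3 per direction with the smallest p of each other list, the 5 most like Nos1, and Arntl. Markers of other cells were named where called, and Myh7, Pvalb, Nos2 and Nos3 were chosen after their values were seen. Of the listed genes 12 were not analysed here. Alternatives were array centring, array weights, an intensity trend with robust prior, genes above the median level, blocks for letter or series, single series, ZT20 or ZT0 left out, a fast fibre covariate, and each animal left out.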

Additional observations from a re-analysis of the deposited data

Results flagged for a closer look

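In 6 of the named genes the effect of mKO differed between muscles by the test of the difference itself (limma, adjusted over all genes). For Sgcd the effect in TA minus that in SOL was -0.25 (SE 0.07, adjusted p = 0.0356), with effects of -0.09 in TA and 0.16 in SOL. The Sgcd call was lost with centred arrays (adjusted p = 0.0526), with the series as a block (0.113), without ZT20 (0.125), in BM3 animals alone (-0.20, adjusted p = 0.703) and without any 1 of 18 of the 36 animals. For Sntb1 it was -0.36 (SE 0.08, adjusted p = 0.00590), with effects of -0.51 in TA and -0.15 in SOL, and it was not called in BM3 animals alone (-0.27, adjusted p = 0.440). For Ank2 it was 0.23 (SE 0.04, adjusted p = 0.00131), with effects of 0.54 in TA and 0.31 in SOL, and 0.28 in BM3 animals alone (adjusted p = 0.0176). For Tln2 it was 0.29 (SE 0.05, adjusted p = 0.000342), with effects of 0.67 in TA and 0.38 in SOL, and 0.33 in BM3 animals alone (adjusted p = 0.0238). For Mbp, a marker of myelin, it was 0.29 (SE 0.06, adjusted p = 0.00174), with effects of 0.01 in TA and -0.28 in SOL, and 0.30 in BM3 animals alone (adjusted p = 0.0774). For Myh3, the embryonic myosin, it was -0.54 (SE 0.12, adjusted p = 0.00813), with effects of -0.11 in TA and 0.43 in SOL, and it was not called in BM3 animals alone (-0.36, adjusted p = 0.586) or without ZT20 (-0.37, adjusted p = 0.236). In BM2 and BM2* animals alone none of the 6 passed. Nos1 and the genes picked for their likeness to it on these arrays are descriptions and are not counted here.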

How the results depend on the processing

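With 3 arrays a group, and with identification series spread unevenly over times, within-series values rest on few animals. Those of BM3 animals come from ZT0, ZT4, ZT8 and ZT16. Those of BM2 and BM2* animals come from ZT8 and ZT12 only, so series and time cannot be told apart in them. The Nos1 difference kept its sign under every alternative run for it. It ran from -0.90 to -0.85 in SOL and from -0.28 to -0.23 in TA when 1 animal was left out. In BM2 and BM2* animals it was -0.71 in SOL and -0.44 in TA. Nos1 was chosen by its fall on these same arrays, so the kept sign is a description and tests nothing. The count of anchors called in SOL, 1 as reported, was 2 with genes above the median level, array weights, the trend and robust prior, and the replicate block of time and letter, from 1 to 2 with 1 animal left out, and 0 within BM3 and 0 within BM2 and BM2* animals. The replicate block is not a pairing of animals, since letters name different mice. Deviations of same-letter mKO and Ctrl pairs had a median r of 0.08 in SOL and 0.16 in TA. They had r over 0.1 in 9 of 18 pairs in SOL and 12 of 18 in TA. For TA and SOL of the same animal the median r was 0.05. The reported genotype fits carry no term for letter, and what animals of the same letter share was not tested. In TA the count, 2 as reported, was 1 with centred arrays, 1 without ZT20, 0 within BM3 and 0 within BM2 and BM2*. Of all genes, 1436 were called between genotypes in SOL, against 477 in BM3 and 59 in BM2 and BM2*, and 3000 in TA, against 5388 with array weights, 1326 in BM3 and 184 in BM2 and BM2*. The interaction called 549 genes, against 1201 with array weights, 148 in BM3 and 6 in BM2 and BM2*. The rhythm in mKO TA called 357, against 563 with array weights, and the rhythm difference in SOL 8, against 14 above the median level, 13 with array weights and from 3 to 13 with 1 animal left out. In BM2 and BM2* animals alone the sign turned for Calm2 in SOL (0.014), B3galnt2 in TA (0.025), Myh3 in SOL (-0.20) and the Myh3 difference between muscles (0.13). The cause of these changes was not tested, beyond the fewer animals and times of a single series and the fewer genes tested above the median level.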
